A study of Mus musculus with 10 samples.

Results

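The comparison described here is of primary mouse hepatocytes treated with palmitate (PA) or linoleate (LA), where both cultures had first been pretreated with Neurotropin (NTP). Its members were chosen by the sample titles as the PA+NTP and LA+NTP libraries, 4 of the 10 libraries of the series with 2 in each group, and every gene of their tables was used. The hepatocytes came from C57BL/6 mice and were measured by RNA sequencing, and the labels name DMEM with fetal bovine serum as growth medium, while the methods describe a change to medium without serum before NTP for cells that were not transfected. PA+NTP cells received NTP (0.4 NU/ml by the legend of the study's figure) for 1 h and then 200 µM PA for 24 h, and LA+NTP cells received NTP for 1 h and then 12 µM LA for 24 h. By the study's account NTP is an analgesic of animal origin that holds many kinds of molecule. The other 6 libraries are 2 each of Vehicle cells, of cells with PA alone and of cells with LA alone, at the same FFA doses. Because the FFAs were given at different doses, the identity of the FFA and its dose cannot be told apart in any value that follows. The labels do not say whether the replicates of a group came from separate cultures or animals, so the p-values measure the spread between these libraries, which may be technical.

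Palmitate is a saturated FFA and linoleate a polyunsaturated FFA, and hepatocytes take up both and either oxidize them or store them in triglyceride. Saturated FFAs are known to be less readily packed into triglyceride than unsaturated ones and to disturb the membrane of the endoplasmic reticulum (ER), and they are known inducers of chemokines in liver cells. Polyunsaturated FFAs are known to restrain the lipogenic transcription factor SREBP1 and to act as ligands of PPAR receptors. The comparison asks which genes and pathways separate the FFAs once NTP is present.

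The expected counts, the estimates of reads per gene that RSEM gives, summed to 30743849 and 31901493 in the PA+NTP libraries and to 35959385 and 60046937 in the LA+NTP libraries. Levels are given as FPKM, the fragments of a gene scaled for its length and for the depth of the library. Replicates of PA+NTP differed by a median of 0.116 on the log2 scale over 10773 well-covered genes, and replicates of LA+NTP by 0.069. Between the means of the groups the median difference was 0.132. Differences were tested with edgeR's quasi-likelihood test on the rounded counts of all 10 libraries, and a gene is named called where its Benjamini-Hochberg adjusted p was under 0.05 and its fold change at least 1.5. Fold changes are PA+NTP over LA+NTP, so that a positive log2 fold change is a higher level with PA. With 2 libraries against 2, a 2-sided exact permutation test can reach no p smaller than 0.333, so each call also rests on the spread shared over genes and groups.

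Of 14097 tested genes, 194 (1.38%) were called as higher in PA+NTP and 345 (2.45%) as lower. By adjusted p alone, without the fold threshold, 986 genes (6.99%) were higher and 1096 (7.77%) lower. The median log2 fold change was 0.01 over all tested genes and its median size was 0.86 over the 539 called genes, of which 414 had a mean level of at least 1 FPKM. In none of the 539 called genes did the FPKM values of the groups overlap, against 7885 (55.9%) of all tested genes without overlap. Among the higher genes were chemokines, interferon-stimulated genes, acute-phase proteins and ER chaperones, and among the lower genes apolipoproteins, desaturases, plasma proteins and enzymes of amino acid, drug and sterol metabolism. The gene lists are described by counts and medians and were not tested as sets. Their counts of called members are to be read beside the 1.38% higher and 2.45% lower of all tested genes. Without LA+NTP replicate 1 the number of lower genes was 204. The fold changes of 13977 genes followed the GC content of their transcripts with a Spearman's rho of -0.221, a description across genes that are not independent. After a smooth GC trend had been removed from each library, 182 genes were higher and 312 lower, and 170 and 300 of them were among the genes called without that step.

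**Figure D1:**
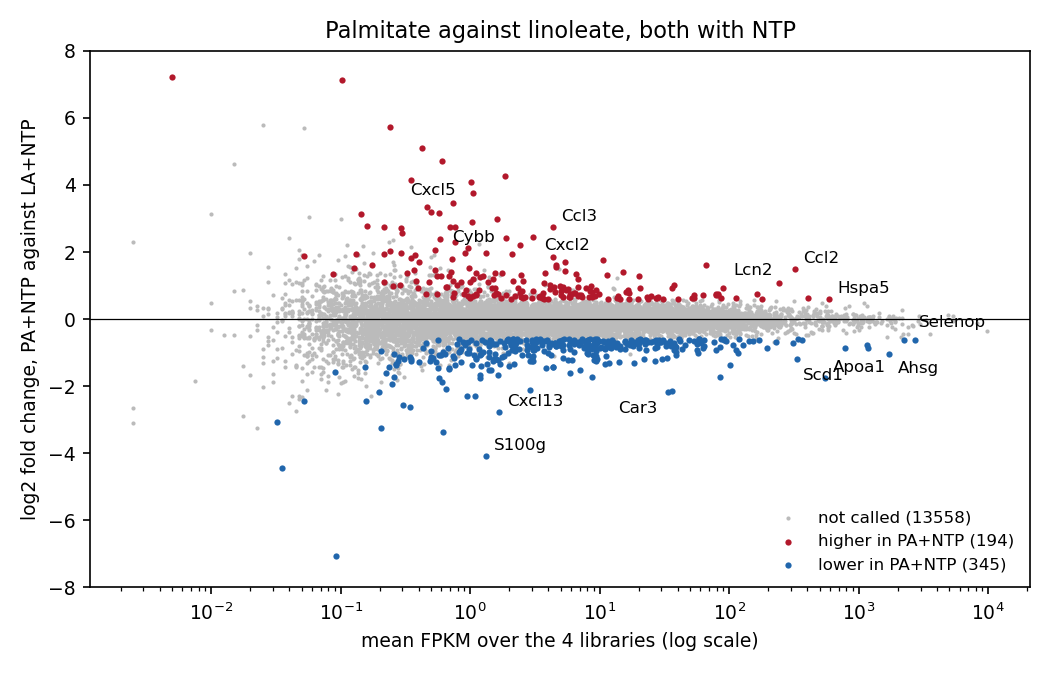
Mean FPKM over the 4 libraries (log scale) and log2 fold change of PA+NTP against LA+NTP, each point a gene, with the 194 genes called higher in red and the 345 called lower in blue. Labelled genes range from Cxcl5 at 3.77 to S100g at -4.09.

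In the list of inflammatory cytokines and NF-kappaB targets, 13 of 36 tested members were higher in PA+NTP and 1 was lower, and the median log2 fold change was 0.53 against 0.01 over all tested genes. By adjusted p alone 23 members were higher and 1 was lower. With the filter at a mean FPKM of at least 1 the higher members were 8. Ccl2, the main attractant of monocytes, stood at 478 and 472 FPKM in the PA+NTP libraries and at 163 and 170 FPKM in the LA+NTP libraries. Both PA+NTP libraries lay far above both LA+NTP libraries, and the latter were near the 162 and 158 FPKM of the Vehicle libraries. The log2 fold change of Ccl2 was 1.48 (SE 0.06, edgeR adjusted p = 3.85e-09). Ccl7, another monocyte attractant, was at 8.50 and 8.12 FPKM with PA+NTP and 2.18 and 2.78 FPKM with LA+NTP. Again the groups were clearly apart, with a log2 fold change of 1.70 (SE 0.19, edgeR adjusted p = 5.63e-05). Ccl3, which attracts macrophages and was outside the list, was at 7.20 and 8.01 FPKM with PA+NTP and at 1.10 and 1.11 FPKM with LA+NTP. Its PA+NTP libraries were high and its LA+NTP libraries lay within the Vehicle values of 1.63 and 0.62 FPKM, with a log2 fold change of 2.75 (SE 0.30, edgeR adjusted p = 5.12e-05).

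The neutrophil attractants Cxcl2 and Cxcl5 were also higher, at lower levels. Cxcl2 was at 4.82 and 5.59 FPKM with PA+NTP and 1.12 and 0.80 FPKM with LA+NTP. The groups did not overlap, and LA+NTP was also below the 1.39 and 1.46 FPKM of Vehicle. The log2 fold change of Cxcl2 was 2.44 (SE 0.24, edgeR adjusted p = 2.05e-05). Cxcl5 was at 2.52 and 1.39 FPKM with PA+NTP and at 0.23 and 0.07 FPKM with LA+NTP. The LA+NTP values are near 0, and the log2 fold change of 3.77 (SE 0.47, edgeR adjusted p = 0.000122) was 4.71 without LA+NTP replicate 1 and 3.0 without LA+NTP replicate 2. The other members called as higher were the cytokines Il6, Il1b and Tnf, the chemokines Cxcl3 and Cxcl16, the decoy ligand Il1rn, the adhesion molecule Vcam1, the adaptor Traf1 and the NF-kappaB inhibitor Nfkbie. Of these, Il6, Il1b, Tnf, Cxcl3 and Traf1 had a mean level below 1 FPKM over the 4 libraries, so their fold changes rest on low levels. The single lower member was Cxcl10, an attractant of T cells, whose call ended without PA+NTP replicate 2 or without LA+NTP replicate 1. Cxcl13, a B cell attractant outside the list, was at 0.37 and 0.49 FPKM with PA+NTP and at 2.72 and 3.08 FPKM with LA+NTP. This chemokine ran the other way, with both LA+NTP libraries at about the Vehicle level of 3.25 and 2.46 FPKM and a log2 fold change of -2.77 (SE 0.32, edgeR adjusted p = 6.58e-05).

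**Figure D2:**
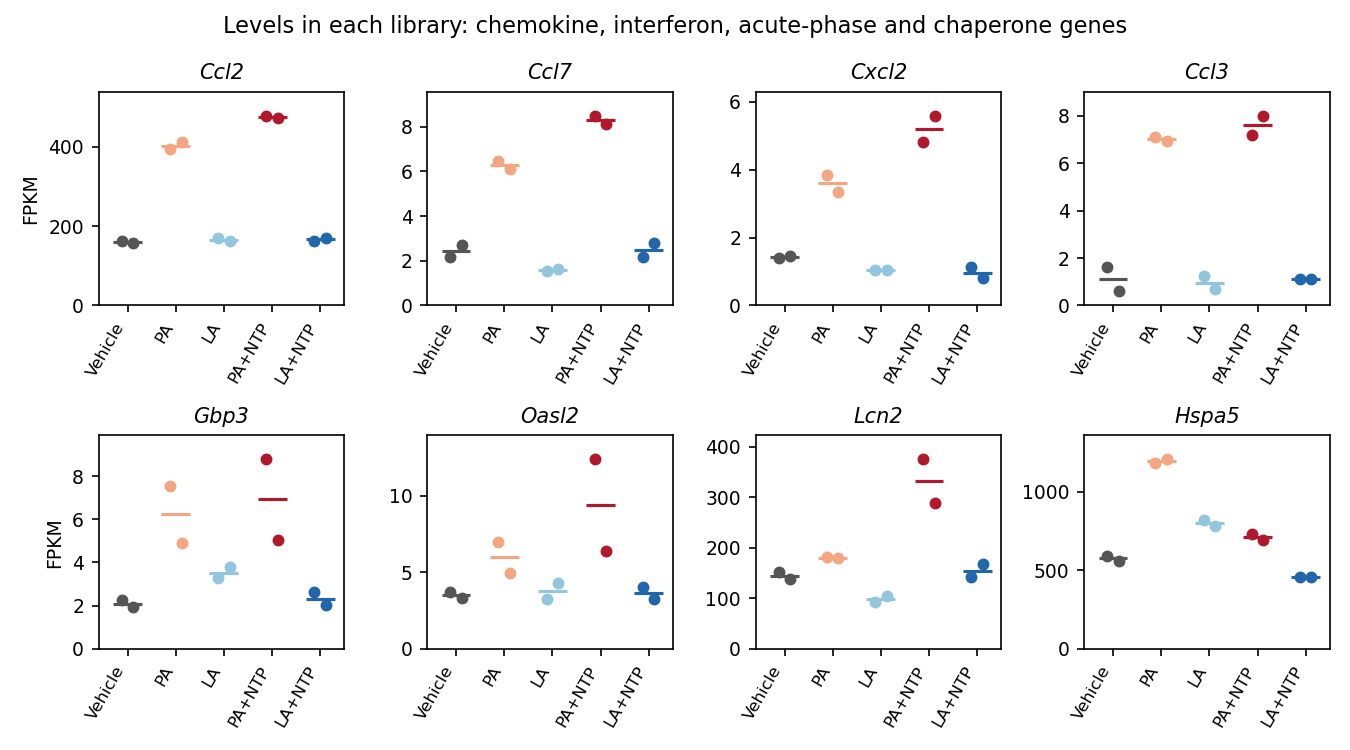
FPKM of 8 genes called as higher in PA+NTP, with each of the 10 libraries as a point and the group mean as a bar. Ccl2 is at 478 and 472 FPKM with PA+NTP and at 163 and 170 FPKM with LA+NTP, and Oasl2 shows the wide gap between the PA+NTP replicates, at 12.4 and 6.37 FPKM.

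Some genes known mainly from macrophages and other leukocytes were higher in PA+NTP and others lower. The lower ones, outside the lists, include Trem2, Cd5l, C1qc and Ctss, and the higher ones described here were named by the size of their change or their level. Cybb, the catalytic subunit of the phagocyte NADPH oxidase, was at 3.05 and 3.39 FPKM with PA+NTP and 0.53 and 0.63 FPKM with LA+NTP. Both groups were well apart, with a log2 fold change of 2.43 (SE 0.14, edgeR adjusted p = 2.63e-07). Acod1, which makes itaconate in activated macrophages, was at 1.93 and 1.72 FPKM against 0.24 and 0.24 FPKM, and the scavenger receptor Marco was at 3.36 and 4.59 FPKM against 0.95 and 0.75 FPKM. In both genes the PA+NTP libraries were high and the LA+NTP libraries low, with log2 fold changes of 2.89 (SE 0.26) and 2.22 (SE 0.29). Lcp1, an actin-bundling protein of leukocytes, was abundant at 218 and 217 FPKM with PA+NTP and at 140 and 139 FPKM with LA+NTP. The replicates were nearly equal and the groups apart, at a log2 fold change of 0.61 (SE 0.06, edgeR adjusted p = 1.4e-05) that was 0.58 and not called once the GC trend was removed.

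Of 8 listed markers of Kupffer cells and macrophages 6 were tested, and Marco and Adgre1, with a log2 fold change of 1.41, were called as higher. The 8 markers summed to 277 and 311 FPKM in PA+NTP, 191 and 202 FPKM in LA+NTP and 214 and 215 FPKM in Vehicle. Cd68, a lysosomal protein, made up 93.2% of the sum over the 4 compared libraries, at 259 and 287 FPKM with PA+NTP and 177 and 190 FPKM with LA+NTP. Its groups were apart, but its log2 fold change of 0.54 stayed below the fold threshold. The defining Kupffer cell markers were close to 0: Clec4f, with a log2 fold change of -1.76 that was not called, was at 0.04 and 0.08 FPKM against 0.29 and 0.13 FPKM, Vsig4 at 0.05 and 0.09 FPKM against 0.12 and 0.16 FPKM, and Timd4 at 0.06 and 0.20 FPKM against 0.09 and 0.01 FPKM. In these bulk libraries more cells of a type and more RNA per cell cannot be told apart, and the part of macrophages in the chemokine result was not tested. Among neutrophil markers S100a8, S100a9, Ly6g and Retnlg had no matched entry in any library and were taken as 0. A gene left out of the tables and a gene without reads cannot be told apart here. The neutrophil sum of 8.54 and 8.12 FPKM with PA+NTP against 6.07 and 7.38 FPKM with LA+NTP came from Cxcr2, which was not called. Among lymphocyte markers Cd3g was at 0 and Ms4a1 had no matched entry, and the sums were 0.17 and 0.22 FPKM against 0.19 and 0.08 FPKM, most of it Cd79a.

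Interferon-stimulated genes, which cells turn on in antiviral defence, mostly had a positive fold change. Of 49 tested members 13 were called as higher and 0 as lower by edgeR, 29 were higher by adjusted p alone, and 45 had a positive fold change. The median log2 fold change was 0.43. Gbp3, a guanylate-binding GTPase, was at 8.78 and 5.05 FPKM with PA+NTP and at 2.64 and 2.01 FPKM with LA+NTP. Both PA+NTP libraries were above both LA+NTP libraries, but PA+NTP replicate 1 was well above replicate 2. Gbp3 had a log2 fold change of 1.55 (SE 0.24, edgeR adjusted p = 0.000573). Oasl2, of the family of oligoadenylate synthetases, was at 12.4 and 6.37 FPKM against 4.06 and 3.27 FPKM. The same replicate stood highest, and the log2 fold change of 1.33 (SE 0.24, edgeR adjusted p = 0.00194) was 0.81 without it. Zbp1, a sensor of nucleic acids, was at 21.5 and 10.2 FPKM against 7.84 and 5.68 FPKM. Its log2 fold change of 1.30 (SE 0.31, edgeR adjusted p = 0.0122) lost the call without PA+NTP replicate 1, at 0.72, and without LA+NTP replicate 2, at 1.01. Zbp1 was also not called by DESeq2 (adjusted p = 0.0572), by either limma fit or in an edgeR fit of the 4 libraries alone (adjusted p = 0.0642). The number of members called as higher was 4 without PA+NTP replicate 1, 24 without PA+NTP replicate 2, 5 without LA+NTP replicate 2 and 8 in a fit of the 4 libraries alone, while 0 were lower by edgeR each time. The other members called were Ifi44, Mx2, Xaf1, Isg15, Rsad2, Oas1a, Dhx58, Parp14, Oasl1 and Stat2.

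Promoters of these genes were examined because 45 of the 49 tested members had a positive fold change, of which 13 were called. In the RefSeq windows of 300 bases, 250 before and 50 after each start site of build GRCm38.p6, the core of the interferon-stimulated response element (ISRE), a pair of GAAA runs with 2 bases between them on either strand, occurred in 3.44% of all 32851 windows and in 409 of the 11126 tested genes with a window. It was found in 19 of 36 tested members that have a window and in 5 of 9 called members. Gbp3 is shown as the called member with the largest fold change of this list at a mean level of at least 1 FPKM. The window is the plus strand of chr3:142559794-142560043, the 250 bases that end at the start site, written 5′ to 3′ with 2 overlapping matches in capitals that begin 45 and 39 bases before the start. A match describes the letters and is neither a shown binding site nor a cause.
Gbp3: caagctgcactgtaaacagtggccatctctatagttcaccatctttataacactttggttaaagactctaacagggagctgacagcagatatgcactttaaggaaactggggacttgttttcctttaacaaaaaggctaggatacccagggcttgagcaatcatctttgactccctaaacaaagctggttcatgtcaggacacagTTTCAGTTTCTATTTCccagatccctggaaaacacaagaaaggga

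For NF-kappaB only the pattern GGGNNNTCC was searched, on both strands, so sites of other letters or another length were not counted. The pattern occurred in 17.8% of all windows and in 2883 of the 11126 tested genes with a window. It was found in 14 of 26 tested members of the inflammatory list with a window and in 3 of 8 called members. These are counts of a common run of letters and not of NF-kappaB sites.

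Acute-phase proteins are plasma proteins that the liver makes in inflammation. By adjusted p alone 4 of 28 tested members were higher and 3 lower, and 14 had a positive and 13 a negative fold change. By edgeR with the fold threshold 4 were higher and 0 lower, with a median log2 fold change of 0.01 that was -0.03 once the GC trend was removed. Lcn2, an iron-scavenging lipocalin, was at 375 and 288 FPKM with PA+NTP and 142 and 167 FPKM with LA+NTP. Its groups were apart, with LA+NTP at the Vehicle level of 152 and 138 FPKM, and the log2 fold change was 1.07 (SE 0.11, edgeR adjusted p = 2.39e-05). The pentraxin Apcs was at 21.2 and 12.0 FPKM against 4.84 and 4.76 FPKM, higher in both PA+NTP libraries and highest in replicate 1, at a log2 fold change of 1.76 (SE 0.22, edgeR adjusted p = 0.000121). The related pentraxin Crp was at 35.1 and 26.7 FPKM against 18.9 and 18.9 FPKM. Crp had a log2 fold change of 0.68, which was 0.50 and not called without PA+NTP replicate 1. Cd14, a co-receptor for endotoxin, was at 47.2 and 51.7 FPKM against 29.4 and 34.0 FPKM. Its log2 fold change of 0.61 was below the threshold without PA+NTP replicate 2, at 0.52, and without LA+NTP replicate 1, at 0.51. Called as lower were 4 members without PA+NTP replicate 1, 1 without LA replicate 2 and 1 without LA+NTP replicate 2.

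In the list of the ER unfolded protein response, the program that enlarges folding capacity, 3 of 33 tested members were called as higher and 0 as lower by edgeR, and 16 were higher by adjusted p alone. The median log2 fold change was 0.19, and the FPKM of the list summed to 3717 and 3684 with PA+NTP and to 2751 and 2815 with LA+NTP. Hspa5, the main chaperone of the ER, was at 731 and 690 FPKM with PA+NTP and at 459 and 459 FPKM with LA+NTP. Vehicle lay between the groups at 593 and 558 FPKM. The log2 fold change of 0.60 (SE 0.06, edgeR adjusted p = 1.93e-05) is just past the fold threshold, and it was 0.57 and no longer called once the GC trend was removed. Pdia4, a disulfide isomerase, was at 104 and 101 FPKM against 58.4 and 61.7 FPKM. Its groups were well apart, with a log2 fold change of 0.74 (SE 0.05, edgeR adjusted p = 2.88e-06). Creld2, an ER protein with disulfide isomerase activity, was at 37.1 and 30.0 FPKM against 21.3 and 20.8 FPKM. Its log2 fold change of 0.64 was 0.51 without PA+NTP replicate 1, which ended the call.

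The amino acid stress genes driven by ATF4 had 2 of 32 tested members called as higher and 0 as lower by edgeR, with 11 higher and 1 lower by adjusted p alone and a median log2 fold change of 0.25. Asns, which makes asparagine, was at 61.5 and 68.2 FPKM with PA+NTP and at 39.6 and 43.0 FPKM with LA+NTP. Vehicle lay between them at 56.1 and 56.3 FPKM, so the difference of 0.62 on the log2 scale (SE 0.08, edgeR adjusted p = 0.000229) was in larger part a low level with LA+NTP. The stress-induced chromatin protein Nupr1 was at 26.8 and 30.5 FPKM against 17.1 and 18.4 FPKM, and PA+NTP here matched the Vehicle values of 28.7 and 24.6 FPKM. Nupr1 had a log2 fold change of 0.66 (SE 0.11, edgeR adjusted p = 0.00134). Without PA+NTP replicate 2 neither gene was called, at 0.52 for Asns and 0.53 for Nupr1, and the number of members called was 0, whereas it was 4 without PA+NTP replicate 1. Without LA+NTP replicate 1 Asns was not called, at 0.56.

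The promoters of Hspa5, Creld2, Asns and Nupr1 are shown as those of called stress genes that hold the response element of their pathway. The ER stress response element (ERSE), a CCAAT box and a CCACG with 9 bases between them, occurred in 0.119% of all windows, in 21 of the 11126 tested genes with a window, in 10 of 28 tested members of the ER list with a window and in 2 of 3 called members. The amino acid response element (AARE), searched as TGATGNAA, occurred in 3.97% of all windows, in 324 of the 11126 tested genes, in 10 of 27 tested members of the ATF4 list with a window and in both called members. Each sequence is the 250 bases before the RefSeq start site in GRCm38.p6, 5′ to 3′ on the strand of the gene, with the match in capitals. Both strands were searched. In Creld2 and Nupr1 the element lies on the opposite strand, so the capitals show its reverse complement. Hspa5 is on the plus strand at chr2:34771840-34772089 with a match 65 bases before the start, and Creld2 on the plus strand at chr15:88819396-88819645 with a match 126 bases before it. Asns is on the minus strand at chr6:7693210-7693459 with a match 23 bases before the start, and Nupr1 on the minus strand at chr7:126625471-126625720 with a match 110 bases before it.
Hspa5: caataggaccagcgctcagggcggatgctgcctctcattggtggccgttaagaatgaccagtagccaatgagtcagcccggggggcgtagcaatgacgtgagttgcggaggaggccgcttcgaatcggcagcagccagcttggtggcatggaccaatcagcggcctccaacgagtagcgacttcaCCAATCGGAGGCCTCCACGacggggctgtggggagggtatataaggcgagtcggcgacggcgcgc
Creld2: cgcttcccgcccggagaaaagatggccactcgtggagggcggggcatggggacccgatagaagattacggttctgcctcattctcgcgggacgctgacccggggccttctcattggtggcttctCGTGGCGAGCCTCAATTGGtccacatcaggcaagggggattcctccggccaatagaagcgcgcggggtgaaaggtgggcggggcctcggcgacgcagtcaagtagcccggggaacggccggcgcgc
Asns: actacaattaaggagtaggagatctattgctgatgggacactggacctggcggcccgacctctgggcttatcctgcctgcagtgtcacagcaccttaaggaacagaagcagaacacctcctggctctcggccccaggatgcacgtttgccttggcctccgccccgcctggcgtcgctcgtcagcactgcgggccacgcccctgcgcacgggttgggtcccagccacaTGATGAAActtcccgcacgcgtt
Nupr1: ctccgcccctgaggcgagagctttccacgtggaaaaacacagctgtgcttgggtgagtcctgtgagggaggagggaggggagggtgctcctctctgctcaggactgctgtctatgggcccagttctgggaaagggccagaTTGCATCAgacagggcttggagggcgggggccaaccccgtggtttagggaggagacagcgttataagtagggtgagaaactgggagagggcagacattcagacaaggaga

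Among antioxidant genes 2 of 47 tested members were higher and 2 lower, which is 4.26% each beside 1.38% and 2.45% of all tested genes, and the median log2 fold change was -0.04. The higher members were 1 without PA+NTP replicate 1, PA+NTP replicate 2 or LA+NTP replicate 2, and the lower members 1 without PA+NTP replicate 2 or LA+NTP replicate 1. Hmox1, which degrades heme, was at 99.9 and 113 FPKM with PA+NTP and 66.6 and 69.0 FPKM with LA+NTP. Both PA+NTP libraries were higher, at a log2 fold change of 0.63 (SE 0.07, edgeR adjusted p = 5.71e-05) that was 0.51 and not called without PA+NTP replicate 2. The glutathione transferase Gsta4, which clears products of lipid peroxidation, was at 276 and 269 FPKM against 403 and 409 FPKM. It was low in PA+NTP, and LA+NTP was at the Vehicle level of 392 and 391 FPKM, with a log2 fold change of -0.60 (SE 0.06, edgeR adjusted p = 1.37e-05). Gsta4 was not called with library-size scaling or with the length trend removed, at -0.58 in both, or in either limma fit, at -0.57. The other called members were Sod2, the superoxide dismutase of mitochondria, which shares 26.4% of its 31-base words with other genes, at 0.61, and Gstm3, a glutathione transferase that shares 37.7% with related genes, at -0.69. Sod2 was not called without PA+NTP replicate 1, at 0.58, or without LA+NTP replicate 2, at 0.56. Gstm3 was not called without PA+NTP replicate 2, at -0.55, or without LA+NTP replicate 1, at -0.56. An antioxidant response element searched as TGACNNNGC occurred in 12.4% of all windows and in 1869 of the 11126 tested genes with a window. It was found in 14 of 41 tested members of the antioxidant list with a window and in 0 of 2 called members.

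The desaturases Scd1 and Fads2 were lower with PA. Scd1, which turns saturated into monounsaturated FFAs, was at 204 and 206 FPKM with PA+NTP and at 451 and 468 FPKM with LA+NTP. The replicates of each group were nearly equal and LA+NTP was at the Vehicle level of 444 and 459 FPKM, so that the log2 fold change of -1.19 (SE 0.06, edgeR adjusted p = 4.19e-08) stands far outside the replicate spread. Fads2, the desaturase that begins the conversion of linoleate to longer polyunsaturated FFAs, was at 73.1 and 71.8 FPKM against 109 and 109 FPKM. Here PA+NTP was close to the Vehicle values of 73.2 and 79.5 FPKM and LA+NTP lay above them, at a log2 fold change of -0.62 (SE 0.08, edgeR adjusted p = 0.000118). In the list of lipogenesis, desaturation and elongation 3 of 26 tested members were lower and 1 was higher. The median log2 fold change was -0.16. The higher member was Pklr, the pyruvate kinase of liver, at 204 and 211 FPKM with PA+NTP and 121 and 121 FPKM with LA+NTP. Its groups were far apart, at a log2 fold change of 0.75 (SE 0.06, edgeR adjusted p = 2.88e-06). Exons of Hcn3 on the other strand cover 22% of Pklr, and since strand use is not stated their reads cannot be told apart there.

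Some genes of lipoprotein secretion were lower with PA. Apoa1, the main protein of high-density lipoprotein, was at 276 and 231 FPKM with PA+NTP and at 958 and 723 FPKM with LA+NTP. Vehicle lay between the groups, at 547 and 440 FPKM. The log2 fold change was -1.76 (SE 0.14, edgeR adjusted p = 3.68e-06). In the list of triglyceride synthesis and secretion 4 of 22 tested members were lower and 0 higher by edgeR, with a median log2 fold change of -0.15. Beside Apoa1 these were Pla2g12b, which takes part in the secretion of very low-density lipoprotein, at -0.72, its partner Tm6sf2 at -0.93, and Apoc3, an inhibitor of triglyceride clearance, at -0.64. Without PA+NTP replicate 2 the members called were 2, as Tm6sf2, at -0.84, and Apoc3, at -0.45, were no longer called. Tm6sf2 was not called without LA+NTP replicate 1 either, at -0.80.

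Cholesterol synthesis genes, the targets of SREBP2, leaned the same way by small amounts. Of 30 tested members 4 were lower and 0 higher by edgeR, 16 were lower and 1 higher by adjusted p alone, and the median log2 fold change was -0.31. Cyp51, the lanosterol demethylase, was at 17.0 and 18.5 FPKM against 27.1 and 26.4 FPKM. Its log2 fold change of -0.62 was -0.53 without PA+NTP replicate 1, which ended the call. Also called were the SREBP regulator Insig1 at -0.62 and the kinase Pmvk at -0.59. Without LA+NTP replicate 1 neither was called, at -0.57 and -0.56, which left 2 members, and Pmvk was not called without PA+NTP replicate 2, at -0.54, by DESeq2, at -0.58, or with library-size scaling, at -0.56. Pmvk was also not called in either limma fit (-0.50 and -0.55) or with the GC trend (-0.53) or the length trend (-0.56) removed. A sterol element searched as TCACNCCAC occurred in 1.24% of all windows and in 162 of the 11126 tested genes with a window. It was found in 1 of 21 tested members of the cholesterol list with a window and in 0 of 3 called members.

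In mitochondrial beta-oxidation 1 of 20 tested members was lower, the dehydrogenase Acad11 at -0.62, and 0 were higher by edgeR. This is 5% of the list called as lower, beside 2.45% of all tested genes. By adjusted p alone 9 members were lower, and the median log2 fold change was -0.20. Acad11 was not called without PA+NTP replicate 2, at -0.49, or without LA+NTP replicate 1, at -0.55, which left 0 calls by edgeR. In peroxisomal and omega-oxidation 2 of 24 tested members were lower, 8 by adjusted p alone, and the median was -0.23. Aldh3a2, which oxidizes fatty aldehydes, was at 51.3 and 44.3 FPKM with PA+NTP and 83.4 and 78.2 FPKM with LA+NTP. Its PA+NTP libraries were low and LA+NTP was near the 84.1 and 84.4 FPKM of Vehicle, with a log2 fold change of -0.79 (SE 0.06, edgeR adjusted p = 4.95e-06). The other was the peroxisomal thiolase Acaa1b at -1.35, which shares 40% of its 31-base words with its sister gene Acaa1a.

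Of 7 tested ketogenesis genes 3 were lower with PA, with a median log2 fold change of -0.28. Bdh1, which interconverts the ketone bodies, was at 7.36 and 4.75 FPKM against 11.5 and 10.4 FPKM, lower in both PA+NTP libraries at a log2 fold change of -0.88 (SE 0.14, edgeR adjusted p = 0.000947). Also called was the monocarboxylate transporter Slc16a7 at -0.76, which was not called without PA+NTP replicate 2, at -0.46, or LA+NTP replicate 2, at -0.73, and stood at -1.15 without PA+NTP replicate 1. Of 29 tested PPARalpha targets outside oxidation 4 were lower, among them Mgll, Slc27a2 and Fads2, and 2 without LA+NTP replicate 1, while the median of the list was -0.06. In the lipid droplet list 4.76% of tested members were called as lower, beside 2.45% of all tested genes. The monoglyceride lipase Mgll was at 1.87 and 1.57 FPKM against 2.87 and 3.19 FPKM. It was low in both PA+NTP libraries, at a log2 fold change of -0.89 (SE 0.13, edgeR adjusted p = 0.000332), and was the single call among 21 tested lipid droplet genes, which had 2 without PA replicate 1, PA replicate 2 or PA+NTP replicate 1.

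FFA uptake and activation had 3 of 23 tested members lower and 0 higher by edgeR, with a median log2 fold change of -0.21. They were the acyl-CoA synthetases Slc27a2, Acsm1 and Acss3. Slc27a2 was at 16.9 and 14.2 FPKM with PA+NTP and at 25.4 and 21.9 FPKM with LA+NTP. It was lower in both PA+NTP libraries at a log2 fold change of -0.63, and was not called without PA+NTP replicate 2 or without LA+NTP replicate 1, at -0.53 in both cases. Acsm1, at 1.26 and 0.97 FPKM against 2.72 and 2.05 FPKM and a log2 fold change of -1.12, was not called without LA+NTP replicate 1, at -0.91. The number of members called was 5 without PA+NTP replicate 1, 1 without PA+NTP replicate 2 and 0 without LA+NTP replicate 1. The conserved double half-site of PPAR receptors (PPRE) occurred in 0.0396% of all windows, in 7 of the 11126 tested genes and in 0 of 24 tested PPARalpha targets with a window.

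Sugar metabolism had 4 of 30 tested members lower and 1 higher, with a median log2 fold change of 0.07. By adjusted p alone 6 were higher and 4 lower, and 18 members had a positive and 12 a negative fold change. With library-size scaling, in both limma fits and once the GC trend was removed, 2 were higher. The glycogen synthase Gys2 was at 2.19 and 1.46 FPKM against 3.77 and 3.67 FPKM. PA+NTP was the low group, at a log2 fold change of -1.06 (SE 0.17, edgeR adjusted p = 0.001). The gluconeogenic phosphatase Fbp1, at 10.7 and 6.18 FPKM against 13.8 and 12.0 FPKM, had a log2 fold change of -0.64 that was not called without PA+NTP replicate 2 (-0.32), LA+NTP replicate 1 (-0.54) or LA+NTP replicate 2 (-0.74), and stood at -1.05, still called, without PA+NTP replicate 1. Adh1, the alcohol dehydrogenase of liver, which was named by the size of its change, was at 48.0 and 31.8 FPKM against 146 and 114 FPKM. It lay far below LA+NTP and Vehicle, which was at 118 and 100 FPKM, with a log2 fold change of -1.74 (SE 0.15, edgeR adjusted p = 9.13e-06).

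Urea cycle and amino acid catabolism genes had 8 of 32 tested members lower and 0 higher by edgeR, 15 lower and 1 higher by adjusted p alone, and a median log2 fold change of -0.48. Their FPKM summed to 945 and 848 with PA+NTP and to 1181 and 1132 with LA+NTP. Among them were Cps1, which begins the urea cycle, and Sds, Gnmt, Tat, Tdo2, Glud1 and Cbs, which break down or convert amino acids. Cps1 was at 2.83 and 1.52 FPKM with PA+NTP and at 4.41 and 3.73 FPKM with LA+NTP. The groups did not overlap, with PA+NTP replicate 2 lowest. Its log2 fold change of -0.93 (SE 0.21, edgeR adjusted p = 0.00877) was -1.41 without PA+NTP replicate 1, and it was not called without PA+NTP replicate 2, at -0.57, or without LA+NTP replicate 1, at -0.82. The number of members called was 13 without PA+NTP replicate 1, 2 without PA+NTP replicate 2 and 1 without LA+NTP replicate 1, and it was 2 in a fit of the 4 libraries alone and 5 in each limma fit.

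Cytochrome P450 genes, which oxidize drugs and sterols, had 6 of 31 tested members lower and 0 higher by edgeR, with a median log2 fold change of -0.32. The called members were Cyp2a4, Cyp2c29, Cyp2c38, Cyp2d9, Cyp2d10 and Cyp2d26, and they numbered 3 without LA+NTP replicate 1, while 1 member was higher without PA+NTP replicate 1. Cyp2d26 was at 7.08 and 5.57 FPKM with PA+NTP and 12.5 and 10.1 FPKM with LA+NTP. It was lower in both PA+NTP libraries, which lay at the Vehicle level of 7.13 and 6.71 FPKM, at a log2 fold change of -0.87 (SE 0.17, edgeR adjusted p = 0.00309). Cyp2d10 had a log2 fold change of -0.79, but it shares 50.2% of its 31-base words with other Cyp2d genes, and Cyp2d26 15%, so their own levels are uncertain. In bile acid and sterol transport 3 of 22 tested members were lower, 6 without PA+NTP replicate 1, and the median log2 fold change was -0.44. Abcb4, the exporter of phosphatidylcholine into bile, was at 34.8 and 26.1 FPKM against 58.0 and 52.4 FPKM. It was low in PA+NTP with both values below either LA+NTP value, at a log2 fold change of -0.89 (SE 0.10, edgeR adjusted p = 6.59e-05). Baat, which conjugates bile acids, was at 4.46 and 2.49 FPKM against 8.69 and 7.30 FPKM, lower in both PA+NTP libraries at a log2 fold change of -1.23 (SE 0.19, edgeR adjusted p = 0.000714). The other was the sterol exporter Abcg8 at -0.71, which lost its call without PA+NTP replicate 2 (-0.61), LA+NTP replicate 1 (-0.70) or LA+NTP replicate 2 (-0.73).

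Plasma proteins were among the most abundant lower genes. Ahsg, the carrier fetuin-A, was at 1283 and 998 FPKM with PA+NTP and at 2386 and 2230 FPKM with LA+NTP. LA+NTP lay just above the Vehicle values of 2110 and 1888 FPKM and PA+NTP far below them, at a log2 fold change of -1.05 (SE 0.10, edgeR adjusted p = 1.53e-05). Selenop, which carries selenium, was at 2345 and 2017 FPKM against 3147 and 3357 FPKM. Its groups were apart, but its log2 fold change of -0.61 was -0.52 without PA+NTP replicate 2 and -0.56 without LA+NTP replicate 2, and not called in either case. Selenop was also not called with library-size scaling or in either limma fit, at -0.58 in each. Serpina6, the corticosteroid-binding globulin, was at 1.46 and 0.73 FPKM against 5.59 and 3.73 FPKM. PA+NTP was low, as was PA alone at 1.05 and 0.60 FPKM, with Vehicle at 6.26 and 4.48 FPKM, at a log2 fold change of -2.11 (SE 0.32, edgeR adjusted p = 0.000573). The protease inhibitor Serpina1b, at -0.86, and the urinary protein Mup20, at -0.78, were also called, but 44.7% and 64.5% of their 31-base words occur in sister genes. Sprr1a, a protein of the cell envelope, was at 1559 and 1982 FPKM against 2529 and 2844 FPKM and was called at -0.63. It was not called without PA+NTP replicate 1, at -0.44, without LA+NTP replicate 2, at -0.54, or once the GC trend was removed, at -0.57.

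**Figure D3:**
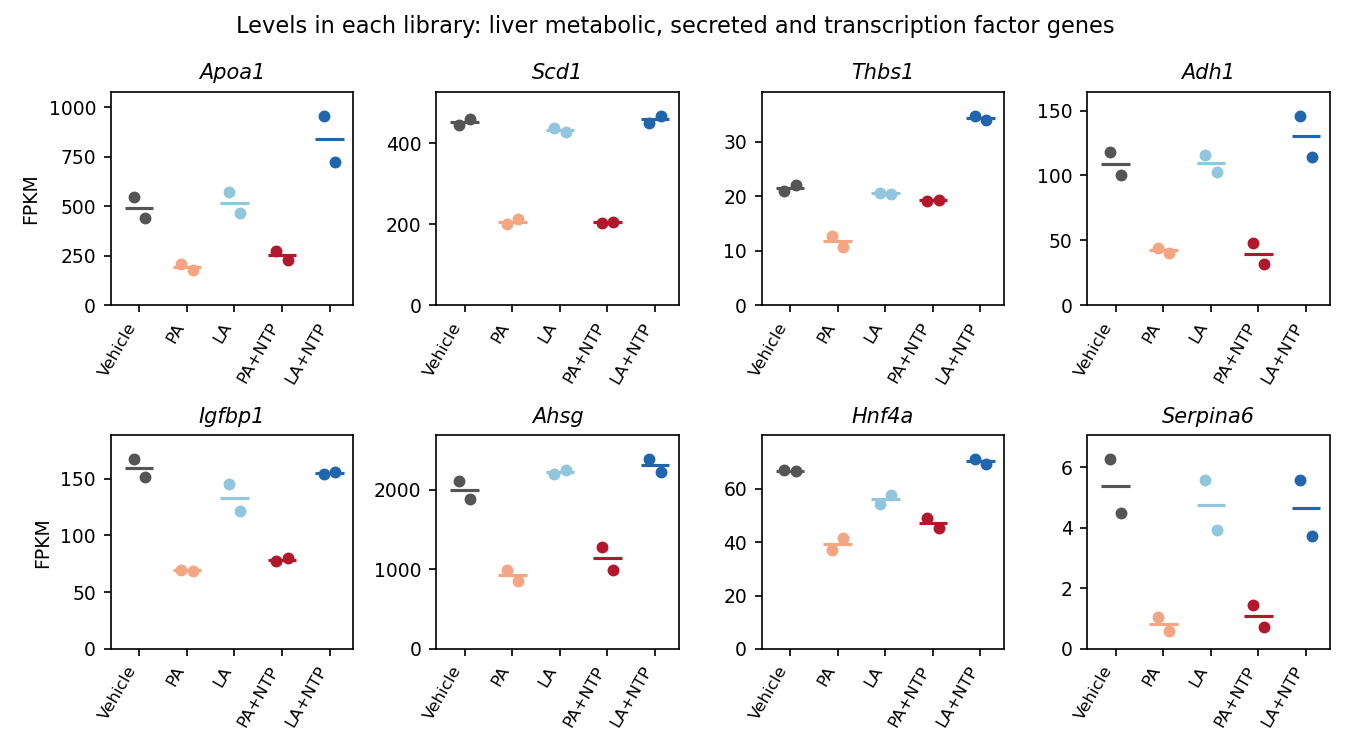
FPKM of 8 genes called as lower in PA+NTP, with each of the 10 libraries as a point and the group mean as a bar. In Scd1, Adh1, Igfbp1, Ahsg and Serpina6 the LA+NTP libraries lie near the Vehicle libraries and the PA+NTP libraries below both, while Apoa1 in LA+NTP, at 958 and 723 FPKM, is also above the 547 and 440 FPKM of Vehicle.

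Of 8 hepatocyte markers 5 were lower in PA+NTP. Alb and Trf had high levels, which fit the labelled cell type, and Cps1 a low one. The 5 were Apoa1, Cps1, Hnf4a, the thyroid hormone carrier Ttr at -0.92 and the protease inhibitor Serpina1a at -0.85, which shares 65.2% of its 31-base words with sister genes. Alb, at 2588 and 2333 FPKM against 2792 and 2818 FPKM, and Trf, at 3597 and 3035 FPKM against 3403 and 3262 FPKM, were not called. The albumin gene differed by -0.22 and the transferrin gene Trf by -0.04 on the log2 scale, the latter with overlapping groups. The 8 markers summed to 7818 and 6622 FPKM with PA+NTP and to 8701 and 8283 FPKM with LA+NTP, with Trf as 42.3% of the sum. Their part in the lower plasma protein, lipoprotein and enzyme genes was not tested. Among 28 tested transcription factors of the hepatocyte 3 were lower and 0 higher by edgeR, with 6 lower without PA+NTP replicate 1. Hnf4a, a nuclear receptor at the centre of the hepatocyte program, was at 49.2 and 45.5 FPKM against 71.1 and 69.4 FPKM. PA+NTP was the low group, with Vehicle at 67.0 and 66.5 FPKM, and the log2 fold change of -0.60 (SE 0.06, edgeR adjusted p = 3.64e-05) dropped to -0.57 without PA+NTP replicate 2 and to -0.58 without LA+NTP replicate 1, below the fold threshold. Hnf4a was not called once the GC trend was removed, at -0.54, or with library-size scaling, at -0.57. The forkhead factor Foxa3 was at 12.4 and 9.92 FPKM against 21.0 and 19.8 FPKM. Its groups were well apart, at a log2 fold change of -0.90 (SE 0.10, edgeR adjusted p = 3.8e-05), and the adipogenic receptor Pparg differed by -0.85.

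The markers of endothelial and of stellate cells all had negative fold changes, with medians of -0.42 and -0.31 and 3 members lower by adjusted p alone in each list. The 6 endothelial markers summed to 30.2 and 34.6 FPKM with PA+NTP and to 38.8 and 41.4 FPKM with LA+NTP, with Cdh5 as 47.2% of the sum, and 0 of 6 were called by edgeR. The 7 stellate cell markers summed to 15.1 and 17.3 FPKM against 20.9 and 21.0 FPKM, with Acta2 as 46.7% of the sum, and Lrat was called as lower. Of the bile duct markers 5 were tested and Krt19 was lower, while the sums of 716 and 579 FPKM against 703 and 676 FPKM were 96.3% Spp1 and overlapped. Erythroid markers summed to 0.69 and 0.46 FPKM against 0.86 and 0.78 FPKM, with Hba-a1 at 0 and no matched entry for Hba-a2, Hbb-bs and Hbb-bt. Genes of matrix, cytoskeleton and dedifferentiation had 7 of 44 tested members lower, 1 higher and a median log2 fold change of -0.19. With the filter at a mean FPKM of at least 1 they had 4 lower and 0 higher. By limma on log2(FPKM + 1) the lower members were 4. Thbs1, a secreted matrix glycoprotein, was at 19.1 and 19.4 FPKM with PA+NTP and 34.8 and 34.1 FPKM with LA+NTP. The replicates were nearly equal and LA+NTP was the high group, at a log2 fold change of -0.87 (SE 0.07, edgeR adjusted p = 3.68e-06). The small calcium-binding protein S100a6 was at 53.5 and 68.7 FPKM against 107 and 108 FPKM, here with LA+NTP at the Vehicle level of 110 and 105 FPKM and a log2 fold change of -0.84 (SE 0.11). The single higher member was the collagenase Mmp13, and 2 were higher without PA+NTP replicate 1 or LA+NTP replicate 1. The part of stellate and endothelial cells in these values was not tested.

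In the insulin and IGF axis 4 of 24 tested members were lower and 0 higher by edgeR, with a median log2 fold change of -0.24 and 1 higher member without PA+NTP replicate 2. Igfbp1, a secreted binding protein of insulin-like growth factors that insulin represses, was at 77.0 and 79.7 FPKM with PA+NTP and at 154 and 156 FPKM with LA+NTP. The replicates were nearly equal and LA+NTP was at the Vehicle level of 167 and 151 FPKM, with a log2 fold change of -1.01 (SE 0.08, edgeR adjusted p = 3.68e-06). Igfbp3, another binding protein, differed by -0.95, and Igf1 itself was at 32.4 and 33.7 FPKM against 47.9 and 50.5 FPKM. The groups of Igf1 were apart, at -0.60, but its fold change fell below the threshold without PA+NTP replicate 1 (-0.50) or LA+NTP replicate 2 (-0.58), with library-size scaling (-0.57) and in both limma fits (-0.56 and -0.57). The adaptor of the insulin receptor, Irs1, was lower at -0.63, and was not called without PA+NTP replicate 2 (-0.57) or LA+NTP replicate 1 (-0.54). Among immediate early genes 2 of 30 tested members (6.67%, beside 2.45% of all tested genes) were lower, both of the AP-1 family. Fos was at 1.85 and 1.78 FPKM with PA+NTP and at 5.03 and 3.56 FPKM with LA+NTP, clearly lower in PA+NTP at a log2 fold change of -1.26 (SE 0.19, edgeR adjusted p = 0.000598). Fosb, at -1.07, was not called without LA+NTP replicate 2, at -0.92, which left 1 lower member, and 1 member was higher without PA+NTP replicate 1.

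Nuclear genes of oxidative phosphorylation showed no call in either direction: 0 of 78 tested members were called by edgeR, and 4 were lower by adjusted p alone. Yet 74 of them had a negative and 4 a positive fold change, against 6823 negative and 7262 positive over all 14097 tested genes. The median of the list was -0.12 on the log2 scale, and -0.09 with library-size scaling. Its FPKM summed to 10113 and 11062 with PA+NTP and to 11026 and 11511 with LA+NTP, so the sums overlapped between the groups. The genes are not independent, and the count of signs is a description. Atp5b, the catalytic subunit of the ATP synthase and the most abundant member, was at 451 and 435 FPKM with PA+NTP and at 508 and 474 FPKM with LA+NTP. Its groups did not overlap, but its log2 fold change of -0.18 missed the threshold (edgeR adjusted p = 0.0506). Of 40 tested genes of mitochondrial biogenesis, dynamics and mitophagy 0 were called by edgeR, with 5 higher and 1 lower by adjusted p alone. The genes examined in the study were not called either. The coactivator Ppargc1b was at 1.71 and 1.66 FPKM against 1.22 and 1.37 FPKM, at a log2 fold change of 0.34 (SE 0.18, edgeR adjusted p = 0.229) with groups that did not overlap. The cytochrome c oxidase subunit Cox7c was at 422 and 487 FPKM against 434 and 505 FPKM, and its partner Cox8a at 196 and 241 FPKM against 221 and 229 FPKM. Cox7c shares 24.5% of its 31-base words with other genes. Both overlapped between the groups, at -0.08 (SE 0.09) and -0.07 (SE 0.09), and both signs turned when a library was left out. Without PA+NTP replicate 1 Cox7c stood at 0.05 and Cox8a at 0.10, and without LA+NTP replicate 2 Cox7c stood at 0.04. The repair enzyme Ogg1 was at 11.3 and 13.9 FPKM against 11.2 and 12.8 FPKM, overlapping at 0.04 (SE 0.11), and was -0.14 without PA+NTP replicate 2 and -0.05 without LA+NTP replicate 1.

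By edgeR, 0 members were called among 28 tested genes of sphingolipid synthesis, 23 of the cytosolic heat shock response, 19 of the circadian clock and 34 of the cell cycle. By adjusted p alone these lists had 3, 3, 0 and 4 members higher and 2, 1, 1 and 2 lower. Cers2, the main ceramide synthase of liver, was at 168 and 157 FPKM with PA+NTP and 166 and 165 FPKM with LA+NTP, with overlapping groups and a log2 fold change of -0.06 (SE 0.06, edgeR adjusted p = 0.587). The constitutive chaperone Hspa8 was at 2084 and 2121 FPKM against 2019 and 2027 FPKM, at 0.03 (SE 0.06), which was -0.01 without PA+NTP replicate 2. It shares 43.5% of its 31-base words with other genes. The cell cycle kinase Cdk4 was at 142 and 144 FPKM against 123 and 124 FPKM, apart but at a log2 fold change of 0.18, too small for a call. The next list, of p53 targets and apoptosis regulators, had 3.03% of its tested members called as lower, near the 2.45% of all tested genes. Among p53 targets and apoptosis regulators 1 of 33 tested members was lower, the BH3-only gene Bmf at -0.74, which was not called without LA+NTP replicate 1, at -0.63, leaving 0 by edgeR, while 2 were lower without PA+NTP replicate 2 or LA+NTP replicate 2 and 1 was higher without PA+NTP replicate 1. A few lists with 0 calls gained 1 or 2 when a library was left out. Without PA+NTP replicate 1, 1 sphingolipid gene and 1 heat shock gene were lower, 1 mitochondrial biogenesis gene was higher and 2 clock genes were lower. Without PA+NTP replicate 2, 1 clock gene and 1 cell cycle gene were lower, and without LA+NTP replicate 2, 1 cell cycle gene was lower and 1 mitochondrial biogenesis gene higher.

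**Figure D4:**
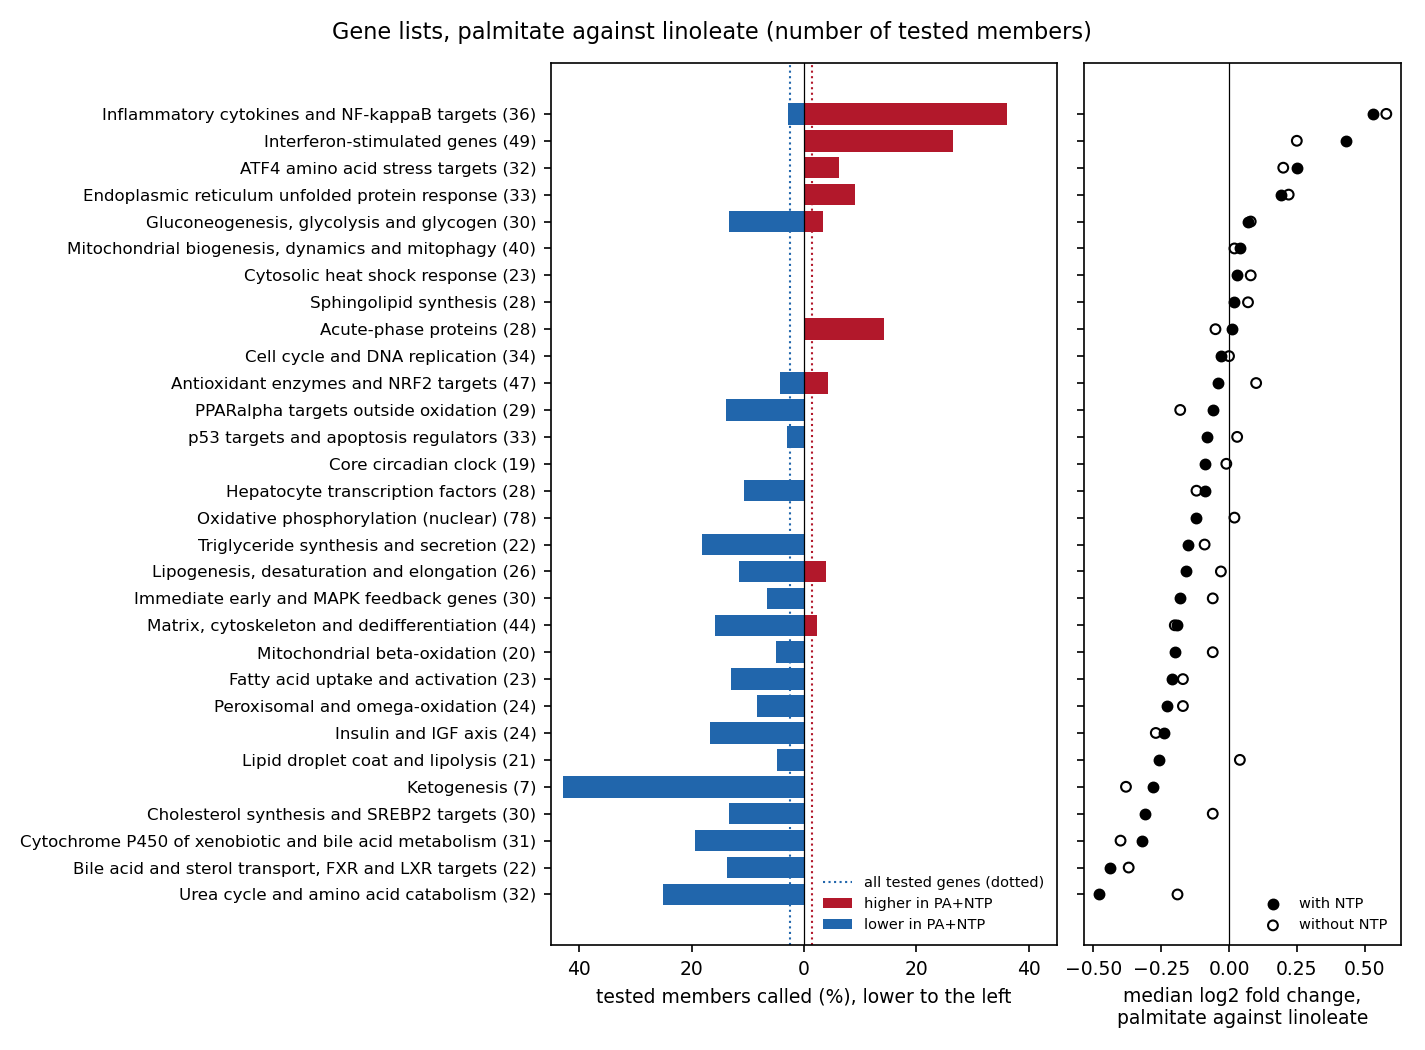
Left, the share of the tested members of each gene list that was called as higher (right of 0) or lower (left of 0) in PA+NTP, with the shares over all tested genes, 1.38% and 2.45%, as dotted lines. Right, the median log2 fold change of each list with NTP (filled) and without it (open). Among the pathway lists, cell type markers left aside, the medians with NTP run from 0.53 for inflammatory genes to -0.48 for the urea cycle and amino acid list.

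Some of the largest fold changes belong to genes of no list and to low levels. Ndufa4l2, a homologue of a mitochondrial subunit that hypoxia induces, was at 6.69 and 0.39 FPKM with PA+NTP and at 0.23 and 0.14 FPKM with LA+NTP. Of these 4 libraries only PA+NTP replicate 1 was high, and without NTP PA replicate 1 was at 3.15 FPKM against 0.08 FPKM in PA replicate 2. The log2 fold change of 4.26 (SE 1.27, edgeR adjusted p = 0.0367) was 1.12 without PA+NTP replicate 1. Its call also ended without either LA+NTP library (4.60 without replicate 1, 3.87 without replicate 2) and without either Vehicle or either LA library, where the value stayed at 4.26. The unnamed gene with ID 627914, at 3.64 and 0.23 FPKM against 0 and 0.18 FPKM, rested on PA+NTP replicate 1 too, with 1.07 without it in place of 4.08, and was not called without LA+NTP replicate 1, at 3.36. Without LA+NTP replicate 2 this gene with ID 627914 had 0 reads left in LA+NTP and stood at 10.91, and its Vehicle values of 4.51 and 4.94 FPKM were above those of all 4 libraries. Guca2b, the intestinal hormone uroguanylin, was at 4.12 and 1.58 FPKM against 0.34 and 0.35 FPKM, higher in both PA+NTP libraries at a log2 fold change of 2.99, or 2.18 without PA+NTP replicate 1. Ampd3, an AMP deaminase, was at 6.26 and 7.50 FPKM against 1.70 and 2.02 FPKM. It was high in both PA+NTP libraries, at a log2 fold change of 1.86 (SE 0.14, edgeR adjusted p = 2.9e-06). The addressin Madcam1, at 2.17 and 2.07 FPKM against 0.37 and 0.65 FPKM, and the ubiquitin ligase Pdzrn3, at 4.46 and 2.30 FPKM against 0.89 and 0.83 FPKM, had log2 fold changes of 1.97 and 1.94.

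On the lower side S100g, the calcium-binding protein calbindin-D9k, was at 0.22 and 0.07 FPKM with PA+NTP and at 2.22 and 2.76 FPKM with LA+NTP. Its PA+NTP values are near 0, and its log2 fold change of -4.09 (SE 0.77, edgeR adjusted p = 0.00284) was -5.01 without PA+NTP replicate 1. The carbonic anhydrase Car3 was at 18.5 and 6.15 FPKM against 73.5 and 36.2 FPKM, which are 4 well separated values. Replicate 1 was the higher in both groups, and the log2 fold change of -2.18 (SE 0.45) was -3.15 without PA+NTP replicate 1 and -1.59 without LA+NTP replicate 1. Selenbp2, a selenium-binding protein, was at 20.8 and 6.46 FPKM against 70.3 and 47.0 FPKM, with -2.14 (SE 0.41) that was -3.17 without PA+NTP replicate 1 and -1.54 without replicate 2. It shares 59.3% of its 31-base words with Selenbp1. Cavin2, a coat protein of caveolae, was at 0.62 and 0.54 FPKM against 1.87 and 1.76 FPKM, low in both PA+NTP libraries at a log2 fold change of -1.68 (SE 0.19, edgeR adjusted p = 6.29e-05). The surface glycoprotein Cd24a differed by -1.67, and the organic anion carrier Slc22a27, which shares 46.9% of its 31-base words with its relatives, by -2.29.

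The same contrast without NTP uses 4 other libraries and shares none with the comparison above. There 167 genes (1.18%) were higher with PA than with LA and 288 (2.04%) lower. Of the genes called as higher with NTP, 86 were also called without it, which is 44.3% of the 194 and 51.5% of the 167, and of the lower genes 188 were shared, 54.5% of the 345 and 65.3% of the 288. By edgeR 0 genes were called in opposite directions. Among the 194 higher genes 180 had the same sign without NTP, with a median log2 fold change of 0.95 with NTP and 0.69 without it. Among the 345 lower genes 333 had the same sign, with medians of -0.84 and -0.71. Genes chosen for passing a threshold in a contrast tend to be smaller in any other, so the gap between these medians is not a measure of NTP. Across all 14097 genes the fold changes of both contrasts correlated at Pearson's r of 0.408 and Spearman's rho of 0.490. Genes are not independent, and no p was computed. The counts without NTP depend on single libraries: the higher genes numbered 99 without PA replicate 2 and 101 without LA replicate 2, and the lower genes 142 without PA replicate 2 and 159 without LA replicate 1.

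**Figure D5:**
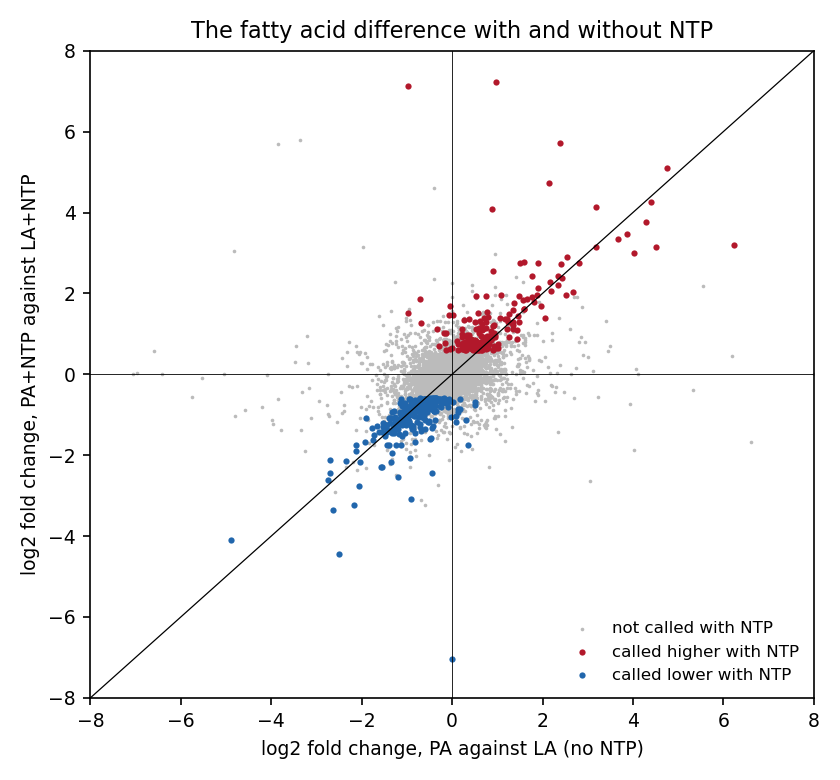
Log2 fold change of PA against LA without NTP (horizontal) and with NTP (vertical) for 14091 genes within the axes, where the diagonal marks equal values. Of the 194 genes called as higher with NTP (red) 180 lie right of 0, and of the 345 called as lower (blue) 333 lie left of 0.

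Whether the FFA difference itself changed with NTP was tested as an interaction. By edgeR's quasi-likelihood test 0 of 14097 genes (0%) passed at an adjusted p under 0.05, and 1029 (7.3%) had an unadjusted p under 0.05. DESeq2 called 5 genes, limma called 5 on log2(FPKM + 1) and 3 on log2(FPKM + 0.1), and edgeR called 5 without PA replicate 2 and 2 without PA+NTP replicate 2. Rpl36, a protein of the large ribosomal subunit, had the smallest p and was taken up after its values were seen. It was at 506 and 551 FPKM with PA+NTP and 562 and 551 FPKM with LA+NTP, and at 196 and 171 FPKM with PA and 120 and 122 FPKM with LA. The FFAs overlapped with NTP and were apart without it, a difference of -0.68 on the log2 scale (edgeR adjusted p = 0.17).

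Several lists had other values without NTP, in contrasts whose difference did not pass for any single gene by edgeR. The interferon list had 0 members called without NTP in either direction by edgeR and a median of 0.25, against 13 and 0.43 with NTP. Gbp3 was at 7.56 and 4.91 FPKM with PA and 3.28 and 3.78 FPKM with LA, apart at a log2 fold change of 0.77 that was not called (edgeR adjusted p = 0.0573). Its difference between the contrasts was 0.79 (edgeR adjusted p = 0.679). The cholesterol list had 0 members called and a median of -0.06 without NTP, against 4 and -0.31 with it. Insig1 differed by -0.07 without NTP and by -0.62 with it, the difference being -0.55 (edgeR adjusted p = 0.629). The urea cycle and amino acid list had 3 lower members and a median of -0.19 without NTP, against 8 and -0.48 with it. For the inflammatory list there were 16 higher members and a median of 0.58 without NTP, against 13 and 0.53 with it. The ER list had 4 higher members and a median of 0.22. Its levels were shifted: Hspa5 was at 1184 and 1207 FPKM with PA and 818 and 779 FPKM with LA, all above their NTP counterparts, while the log2 difference between the FFAs was 0.57 without NTP and 0.60 with it.

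Set side by side against the Vehicle libraries, which both groups then share, the genes higher in PA+NTP than in LA+NTP had a median log2 fold change of 0.79 in PA+NTP and -0.14 in LA+NTP. For the lower genes the medians were -0.69 in PA+NTP and 0.17 in LA+NTP. Both lists were chosen by the difference between these groups, so the gap between the medians is set by that choice. Among single genes, Ccl2 stood at 1.55 in PA+NTP and 0.06 in LA+NTP, Lcn2 at 1.17 and 0.10, and Scd1 at -1.16 and 0.03. Other genes were displaced from Vehicle on both sides or by LA+NTP alone, as Hspa5 at 0.28 and -0.32, Apoa1 at -0.99 and 0.77, and Thbs1 at -0.19 and 0.68.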

How the data were processed

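According to the submitters' processing notes, reads were mapped by HISAT and Bowtie2 to mm10 and RSEM quantified the genes. Their versions were not given in the sources used here, nor was strand use. The deposited expected count is RSEM's estimate per gene without normalization between libraries. It divides reads among near-identical gene copies. The deposited FPKM, which the methods call RPKM, had been scaled by the authors for length and depth. A gene missing from a library's table was taken as 0. Replicate numbers in the names of the deposited tables differ from those in the titles, and the titles were followed.

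The members and gene lists were chosen with earlier results of these data known. Expected counts were rounded and fitted with edgeR 4.0.16 in R 4.3.3 (10 libraries, 5 groups, TMM normalization, filterByExpr, quasi-likelihood F test). Low counts removed 3958 genes, so 14097 were tested. Genes were named by a fixed rule: the 12 higher and 12 lower called genes with the largest fold change at a mean FPKM of at least 1 and no overlap (symbols of predicted or Riken gene models and of small RNAs left out), the 5 most abundant called genes in each direction, for each list up to 4 called members above that level or else its most abundant one, and Ppargc1b, Cox7c, Cox8a and Ogg1, which the study examined. This gave 111 genes. Some genes that the rule named, and some list members, are not reported here. Other called list members are named without values, and Adgre1, Cd68, the other cell markers and Rpl36 were taken up outside the rule.

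Of 18055 gene IDs, 17998 were matched to RefSeq names by ID and 11 by accession, and 78 of the 111 named genes have a RefSeq promoter window. Shared sequence is the percentage of a gene's 31-base words that occur in transcripts of other genes. Exons on the other strand overlap 30.9% of Irs1, 29.6% of Sds, 19.7% of Cdk4 and 15.4% of Selenop. GC content was known for 99.1% of tested genes. The alternatives were DESeq2 1.42.0, limma 3.58.1 on log2 FPKM with pseudocounts of 1 and 0.1, library-size scaling, other filters, no fold threshold, the 4 libraries alone, the replicate number as a block, GC or length trends removed (loess, span 0.4), thinning to 13135724 counts, the NOISeq rule at a probability of 0.95, and each library left out. For the contrast without NTP and the interaction, the FPKM filter and the limma fits, and for the former the NOISeq rule, were chosen after seeing the data. The pipeline was tested on simulated data.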

Additional observations from a re-analysis of the deposited data

How the results depend on the processing

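Of the 111 named genes 98 were called, and 0 of these changed sign in any other setting that tested them. There were 25 other settings, and Guca2b was tested in 24. Of the 98, 55 kept their call in every setting that tested them but the NOISeq rule, which lost 88 calls. A fit of the 4 compared libraries alone ended 12 calls, among them Zbp1, Cps1, Fbp1, Slc16a7 and Abcg8, while the replicate block on the same 4 libraries ended 0 and called 258 higher and 426 lower genes, against 133 and 247 without the block. By limma 22 calls ended on log2(FPKM + 1), among them Insig1, Cyp51, Fads2, Mgll, Slc27a2, Acad11, Irs1, Bmf and Fosb, and 12 on log2(FPKM + 0.1), and thinning ended those of Sds, Cd14, Abcg8 and Fosb. With a library left out, the lone remaining library of its group is assumed to vary like the other groups. Leaving out each library in turn gave 142 to 221 higher and 204 to 439 lower genes with NTP, 99 to 175 higher and 142 to 335 lower genes without NTP, and 0 to 5 genes for the interaction. Without a fold threshold 986 genes were higher and 1096 lower with NTP, and 788 and 781 without NTP, since fewer conditions are applied. The NOISeq rule called 6 and 9 genes with NTP and 3 and 12 without it. NOISeq at a fold of 1.5 and a probability of 0.95 was the study's own criterion for differential genes. Here the rule was rewritten from its published definition and applied to FPKM, so its counts may differ from those of the original program. On log2(FPKM + 1), limma called 117 higher and 178 lower genes with NTP and 137 lower genes without it, and the filter at a mean FPKM of 1 left 110 higher genes without NTP.

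For the interaction, 0 by edgeR became 5 with DESeq2, 41 with no filter on low counts, 5 and 3 with limma on log2(FPKM + 1) and log2(FPKM + 0.1), and 1 after thinning. The replicate block gave 1 interaction gene, or 2 with the GC trend also removed. With the replicate block 200 genes were higher and 372 lower with NTP, of which 193 and 345 were called without it, and the block ended 0 calls of named genes. The difference between replicate 1 and replicate 2 correlated at 0.27 between PA+NTP and LA+NTP, from 0.112 to 0.339 over the 6 pairs of groups given FFA and from -0.142 to 0.077 over the 4 pairs with Vehicle, across 10773 genes. The labels give the numbers no meaning and each group has 2 libraries, so the numbers were not taken to pair the libraries. In the block fit 5 genes of FFA uptake and activation were lower in place of 3, 2 lipid droplet genes in place of 1 and 1 acute-phase gene in place of 0.

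Genes that were not called reversed as follows, with the range over single libraries left out. Hspa8 ran from -0.01 (without PA+NTP replicate 2) to 0.07 (without PA+NTP replicate 1). Cox7c ran from -0.21 (without PA+NTP replicate 2) to 0.05 (without PA+NTP replicate 1), and was 0.04 without LA+NTP replicate 2. Cox8a ran from -0.25 (without PA+NTP replicate 2) to 0.10 (without PA+NTP replicate 1), and was 0.03 with the GC trend removed and 0.02 with both the GC trend removed and a replicate block, while the block alone left it at -0.07. Ogg1 ran from -0.14 (without PA+NTP replicate 2) to 0.21 (without PA+NTP replicate 1), and was -0.05 without LA+NTP replicate 1. Apart from the fold threshold the cause was not tested. There are 2 libraries a group, and FFA and dose stay joined.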
